A study of Mus musculus with 6 samples.

Results

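Of the 24091 gene symbols in the deposited count table of mouse prostate, 58 named a chemokine or a chemokine receptor. They were taken by name alone, as every symbol that starts with Ccl, Cxcl, Cx3cl, Xcl, Ccr, Cxcr, Cx3cr, Xcr or Ackr and continues with a number and at most 1 letter, so no measured value chose them. The set holds 36 ligands and 22 receptors. Of these, 47 (31 ligands and 16 receptors) had enough counts to be tested among the 15050 genes of the whole table that did. The other 11 members, Cxcl17, Ccl26, Ccl1, Ccl19, Ccl27b, Ccr3, Ccr8, Ccr9, Ccr10, Cxcr1 and Cxcr5, had at most 36 counts over all libraries, and Ccl26 and Ccl27b had none. The Ccl21 genes were not analysed here.

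The 6 RNA sequencing libraries fall into 3 groups of 2. The 12Q libraries came from prostate tumors of male mice in which a humanised allele encodes 12 glutamines in its polyglutamine tract, and the 48Q libraries from tumors of males with 48 glutamines there. Both tumor genotypes also held Ctnnb1(Ex3)L/wt, 1 β-catenin allele with a conditional exon 3, and PBCre-4, a Cre recombinase transgene under the probasin promoter, which is active in prostate epithelium. The WT libraries came from normal prostate of wild-type mice, for which the labels list none of these alleles, and no age is stated for any group. No tumor-free group carried the humanised, Ctnnb1 or Cre alleles, so their part in a difference from WT cannot be told apart from that of the tumor. The labels do not say that replicates came from separate animals, so a p-value here reflects how far these particular libraries spread, which could be technical. The design answers how each tumor genotype differed from normal prostate and how tumors with the short tract differed from those with the long tract.

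Chemokines are small secreted proteins that guide leukocytes, and other cells, along concentration gradients through receptors coupled to G proteins. They are grouped by the spacing of their first cysteines into CXC, CC, CX3C and XC ligands, and atypical receptors (Ackr) bind and remove ligands without signalling through G proteins. In tumors, epithelial cells, stroma and leukocytes all make them, and the receptors mark in part which leukocytes are present. In bulk tissue, fewer cells of a type and less RNA per cell cannot be told apart.

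Library totals ranged from 26416181 to 28559546 counts, and the composition of the libraries differed: the scaling factors (TMM) were 1.02 and 1.13 for the 12Q libraries, 1.21 and 1.24 for those of 48Q and 0.708 and 0.811 for WT prostate. Levels below are counts relative to the scaled library total (CPM, edgeR's cpm), and 3 counts corresponded to 0.0855 to 0.156 CPM. The tissue label was checked on prostate secretory genes. Pbsn, the gene of the prostate protein probasin, stood at 3.33 and 5.14 CPM in 12Q, 3953 and 2247 CPM in 48Q and 28207 and 16139 CPM in WT. This marker was lower in every tumor library than in WT and lowest in the 12Q tumors. The 5 secretory genes listed, Pbsn included, summed to 16251 and 745 CPM in 12Q, 14507 and 10932 CPM in 48Q and 98513 and 68780 CPM in WT. Their sum was thus lower in every tumor library than in WT, but in 12Q replicate 1 it lay above both 48Q libraries. Seminal vesicle secretion genes summed to at most 39.9 CPM in a tumor library and 0.0884 CPM in WT. Across genes, the log CPM of the 12Q replicates correlated at 0.953, of the 48Q replicates at 0.988 and of the WT replicates at 0.960, and the replicates of each group differed by more than sampling noise.

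The summed level of the 58 members was 430 and 553 CPM in 12Q, 598 and 512 CPM in 48Q and 214 and 236 CPM in WT, so each tumor library exceeded both WT libraries. Members with at least 1 count numbered 49 and 51 in the 12Q libraries, 56 and 55 in the 48Q libraries and 40 and 43 in the WT libraries. The scavenger-type ligand Cxcl16 took 38.9% and 30.0% of the members' CPM in 12Q tumors, 9.92% and 11.8% of it in 48Q tumors and 7.77% and 6.56% in normal prostate. In 48Q the leading member was instead Cxcl14, a chemokine whose receptor is unsettled, with 33.7% and 30.6%. Its share was 1.69% and 2.73% in 12Q tumors and 3.75% and 12.9% in WT. Per kilobase of exon, the 12Q order was Cxcl16 at 65.0 ± 0.407 CPM per kb, Ccl6 at 35.1 ± 24.8, Cx3cl1 at 20.2 ± 10.4, Cxcr4 at 17.4 ± 3.56 and Ackr3 at 16.3 ± 10.9 (SD, n = 2). Below Cxcl16 these levels lay within each other's spread. In 48Q the order per kilobase was Cxcl14 at 98.3 ± 17.4 CPM per kb, Cxcl16 at 23.4 ± 0.347, Ccl6 at 17.9 ± 4.30, Cx3cl1 at 15.5 ± 0.161 and Ackr3 at 14.9 ± 2.06 (SD, n = 2), with Cxcl14 and Cxcl16 apart from the rest. In WT no member stood apart: Ackr3 had 12.8 ± 8.88 CPM per kb, Ccl6 12.6 ± 12.9, Cxcl14 10.6 ± 8.72, Cx3cl1 9.20 ± 2.87 and Cxcl16 6.27 ± 0.321 (SD, n = 2).

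**Figure D1:**
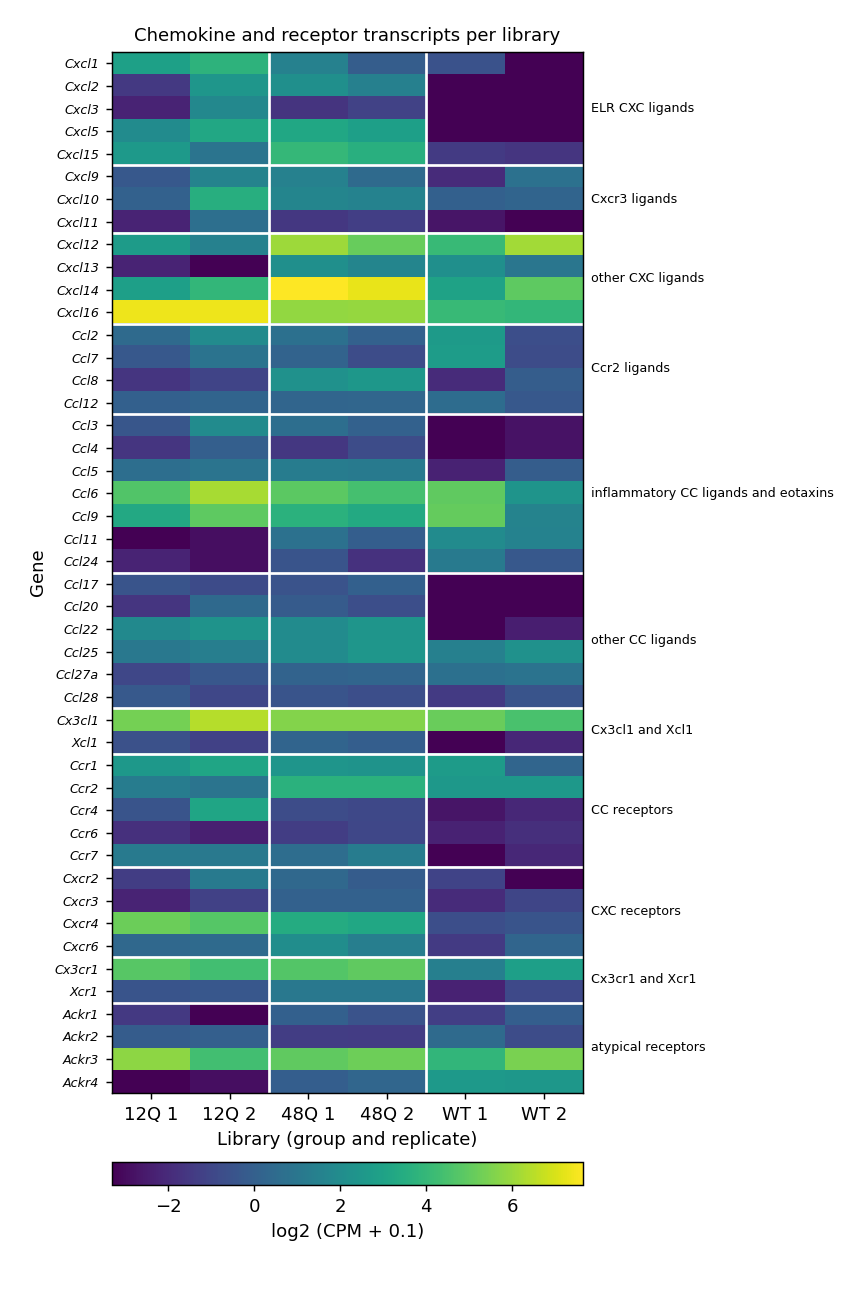
Level of tested members in the 6 libraries, as log2(CPM + 0.1), with members in rows by class and libraries in columns in the order 12Q, 48Q, WT. The 5 ELR ligands are dark in the WT columns and brighter in the tumor columns, and Cxcl13, Ccl11 and Ackr4 are darkest in the 12Q columns.

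In 12Q tumors against WT prostate, 19 of the 47 tested members passed the test (edgeR's quasi-likelihood test, Benjamini-Hochberg adjusted p under 0.05 over all 15050 genes), 13 higher and 6 lower. That is 40.4% of the tested members, against 22.4% of all genes tested, with 27.7% of members and 11.2% of genes higher and 12.8% of members and 11.2% of genes lower. The higher ones included the ligands Cxcl1, Cxcl5, Cxcl15, Cxcl16, Ccl3, Ccl17, Ccl20 and Ccl22 and the receptors Ccr4, Ccr7, Cxcr4 and Cx3cr1. The 6 lower were Cxcl12, Cxcl13, Ccl11, Ccl24, Ccr2 and Ackr4. The median log2 fold change of the tested members was 1.14, also with members at 0 in WT set to their lower bound, beside -0.01 for all genes tested. The test keeps only genes with enough counts in at least 2 libraries, so a member kept for its counts in tumors alone had to be higher there, and these shares and medians are a description.

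In 48Q tumors against WT, 8 of the 47 tested members passed, all higher, which is 17% of them against 5.18% of all genes tested, or 3.95% of genes in that direction. They included Cxcl5, Cxcl15, Cxcl16, Ccl17, Ccl22, Cxcr4 and Cx3cr1. The number lower was 0 by edgeR, where 1.23% of genes passed, with 1 member lower at an unadjusted p under 0.05 and 1, Ackr4, called by DESeq2. The median log2 fold change of the tested members was 1.90, or 1.77 with members at 0 in WT at their bound, beside 0.02 for all genes. This comparison uses the same WT libraries as that of the 12Q tumors, so the lists are given side by side and their likeness is not a result. Without WT replicate 1 no gene of the whole table passed in 48Q against WT by edgeR, 0 of the members included, although 22 members had an unadjusted p under 0.05. Without 48Q replicate 1 and without 48Q replicate 2 the count of members higher was 2 each time.

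Between the tumor groups, 7 of the 47 tested members passed in 12Q against 48Q, which is 14.9% of them against 4.17% of all genes tested. Cxcl16 and Cxcr4 were higher in 12Q, in a direction in which 1.01% of genes passed, and Cxcl13, Cxcl14, Ccl11, Ccr2 and Ackr4 were lower in 12Q, where 3.16% passed. The median log2 fold change of the tested members was -0.17, beside 0.00 for all genes. All 7 calls were lost when any 1 of the 4 tumor libraries was left out, with the direction of each kept. Such a fit leaves 1 library in a group, and calls over the whole table also became fewer, so the loss is not particular to these 7. Groups that did not overlap were also counted: 12Q lay above both WT libraries for 22 members (46.8%, against 30.1% of genes) and below both for 9 (19.1%, against 30.4%). The 48Q libraries lay above both WT libraries for 29 members (61.7%, against 34.7% of genes) and below both for 5 (10.6%, against 29.8%). The 12Q libraries lay above both 48Q libraries for 6 members (12.8%, against 31.3% of genes) and below both for 20 (42.6%, against 35.5%).

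Scaling by library totals instead of TMM put the median of all genes at 0.48 on the log2 scale for 12Q against WT, at 0.71 for 48Q against WT and at -0.19 for 12Q against 48Q. The share of all called genes that were higher then moved to 76% in 12Q against WT, beside 50.1% under TMM, to 95.9% in 48Q against WT, beside 76.3%, and to 14.1% in 12Q against 48Q, beside 24.2%. Under that scaling the members called numbered 16 higher and 5 lower in 12Q against WT, 14 higher and 0 lower in 48Q against WT, and 1 higher and 3 lower in 12Q against 48Q. No member that passed the test changed direction under it.

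**Figure D2:**
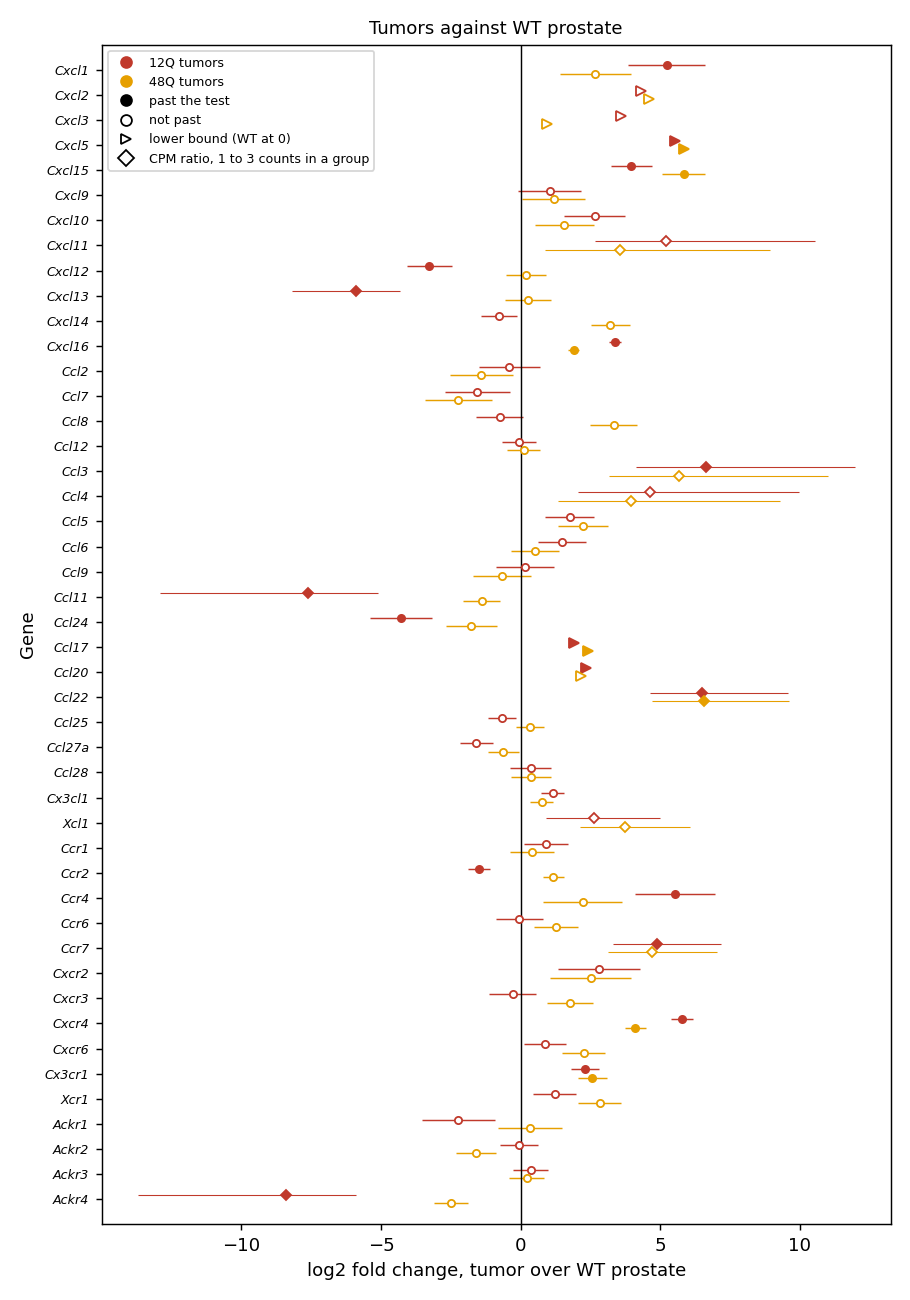
Log2 fold change of tested members in 12Q and in 48Q tumors over WT prostate. Points are fitted values with their standard error, filled where the adjusted p was under 0.05, triangles are lower bounds for members at 0 counts in WT, and diamonds are CPM ratios with an exact 95% counting interval where a group held 1 to 3 counts. The CXC receptor Cxcr4 stands at 5.77 in 12Q and 4.11 in 48Q, whereas Cxcl12 stands at -3.27 in 12Q and 0.18 in 48Q.

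The ELR ligands carry a glutamate-leucine-arginine motif before their first cysteines and attract neutrophils, in the main through Cxcr2. The 5 genes of this class among the members lie within chr5:90759298-90905938 (mm10), and all 5 were close to or at 0 in WT and present in each tumor library. Ppbp and Pf4, chemokine genes whose names the rule does not match, are not among them. Ppbp had 0.444 and 1.33 CPM in 12Q and 0 and 0.0442 CPM in WT (edgeR adjusted p = 0.038). Pf4 had 1.63 and 4.49 CPM in 12Q and 2.56 and 1.86 CPM in WT (edgeR adjusted p = 0.622). In 12Q against WT, 3 of the 5 passed the test and in 48Q against WT 2 of the 5. In 12Q against 48Q 0 passed by edgeR, with 1 at an unadjusted p under 0.05 and 1, Cxcl15, lower by DESeq2.

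Promoter letters are shown for Cxcl1 and Cxcl15, because these 2 members of the cluster hold different motifs. Each stretch is the 250 bases before the gene start in RefSeq's GRCm38.p6 (mm10), on the plus strand, with capitals marking the motif found by search on both strands. For Cxcl1, at chr5:90890995-90891244, the capitals mark matches to the κB motif GGGNNNTTCC, of which 2 overlap.

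Cxcl1: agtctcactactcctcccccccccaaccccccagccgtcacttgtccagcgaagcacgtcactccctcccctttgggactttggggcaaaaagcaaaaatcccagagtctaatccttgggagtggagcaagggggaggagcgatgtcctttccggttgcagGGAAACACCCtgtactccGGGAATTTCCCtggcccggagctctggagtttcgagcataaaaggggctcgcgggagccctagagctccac

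For Cxcl15, at chr5:90794284-90794533, the capital letters mark a match to the TCF/LEF motif, ATCAAAG or TTCAAAG.

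Cxcl15: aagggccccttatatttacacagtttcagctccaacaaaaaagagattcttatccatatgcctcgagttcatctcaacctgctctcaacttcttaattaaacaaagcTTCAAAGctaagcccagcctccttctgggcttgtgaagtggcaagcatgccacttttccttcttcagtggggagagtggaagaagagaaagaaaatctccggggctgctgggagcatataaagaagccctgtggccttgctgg

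The κB motif was found in 9 of the 50 promoter entries available for 43 of the members (18.0%), against 4.65% of 32851 promoters, and Cxcl1, Cxcl2 and Cxcl3 are among the 9. The TCF/LEF motif was found in 7 of the 50 (14%), against 7.48% of all promoters, and the interferon response motif GAAANNGAAA in 3 (6.0%), against 2.98%. A match describes letters in a window and is not a bound site.

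Cxcl5 (chr5:90759298-90761625), a ligand of Cxcr2, had 3.88 and 9.53 CPM in 12Q, 9.27 and 7.27 CPM in 48Q and 0 counts in both WT libraries. The tumor libraries all lay above WT, and the 12Q and 48Q ranges overlapped. The fold was at least 46.4 in 12Q over WT (edgeR adjusted p = 0.00703) and at least 57.2 in 48Q over WT (edgeR adjusted p = 0.0186), with 3 counts per WT library as the floor. The 12Q call held in all 12 alternative analyses, with a fold of at least 26.9 without 12Q replicate 2, and the 48Q call was lost without WT replicate 1 (edgeR adjusted p = 0.0902).

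Cxcl15 (chr5:90794534-90803067), known as lungkine, had 5.81 and 1.79 CPM in 12Q, 16 and 11.9 CPM in 48Q and 0.261 and 0.221 CPM in WT. No groups overlapped, with 48Q highest and WT lowest. Its log2 fold change was 3.96 ± 0.74 (SE) in 12Q over WT, or 15.8-fold (edgeR adjusted p = 0.0162), and 5.84 ± 0.78 in 48Q over WT, or 58.0-fold (edgeR adjusted p = 0.0199). The 12Q call was lost without WT replicate 1 or 2 (edgeR adjusted p = 0.0664 and 0.0728), and the 48Q call without any 1 of the 48Q and WT libraries (edgeR adjusted p = 0.0606 to 0.120). In 12Q the CPM ratio to WT was 7.45 without 12Q replicate 1 and 24.1 without 12Q replicate 2. Between 12Q and 48Q the log2 difference was -1.88 ± 0.62 (edgeR adjusted p = 0.128).

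Cxcl1 (chr5:90891245-90893115), the mouse KC chemokine, had 7.40 and 13.6 CPM in 12Q, 2.74 and 0.855 CPM in 48Q and 0.574 and 0 CPM in WT. The 12Q libraries lay above all others, and the 48Q libraries lay above WT. The log2 fold change in 12Q over WT was 5.23 ± 1.37, or 36.7-fold (edgeR adjusted p = 0.0404), and in 48Q over WT it was 2.68 ± 1.28 (edgeR adjusted p = 0.252). The 12Q call was lost without any 1 library other than WT replicate 1 (edgeR adjusted p = 0.0522 to 0.107). It was also lost with only the 2 groups compared (edgeR adjusted p = 0.0555). Without WT replicate 2 the fold in 12Q was 18.3, and without WT replicate 1 it was at least 79.3. The 12Q and 48Q difference, 2.55 ± 1.16 on the log2 scale, did not pass (edgeR adjusted p = 0.219).

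Cxcl2 and Cxcl3, also Cxcr2 ligands, were at 0 counts in both WT libraries and did not pass the test by edgeR, whereas DESeq2 called both in 12Q against WT and Cxcl2 in 48Q against WT. Cxcl2 had 0.259 and 5.41 CPM in 12Q and 4.36 and 2.68 CPM in 48Q, at least 19.6-fold over WT in 12Q (edgeR adjusted p = 0.0519) and at least 24.4-fold in 48Q (edgeR adjusted p = 0.0887). Cxcl3 had 0.111 and 3.37 CPM in 12Q and 0.211 and 0.342 CPM in 48Q, at least 12.1-fold over WT in 12Q (edgeR adjusted p = 0.0724). In 12Q both genes were far higher in replicate 2 than in replicate 1. The ELR ligands together summed to 17.5 and 33.8 CPM in 12Q, 32.6 and 23.1 CPM in 48Q and 0.834 and 0.221 CPM in WT. The 10 neutrophil markers listed summed to 9.14 and 36.9 CPM in 12Q, 12.7 and 13.2 CPM in 48Q and 0.313 and 0.398 CPM in WT. All 4 that could be tested were higher in 12Q against WT and 2 of 4 in 48Q against WT, beside 11.2% and 3.95% of all genes. In WT replicates 1 and 2, 7 and 6 of the 10 were at 0. The 4 tested thus passed the count filter through tumor libraries, and their count is a description. Of the defining markers, S100a8 was at 0 in both WT libraries and Camp at 0 in every library, and the part of neutrophils in the ELR ligand result was not tested.

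The interferon-induced ligands of Cxcr3, the receptor of activated T cells, lie together in chr5:92321331-92363296. None of the 3 passed in any comparison by edgeR, with 2 at an unadjusted p under 0.05 in 12Q against WT and 0 in the other comparisons. DESeq2 called Cxcl10 in 12Q against WT and no other. Cxcl10 had 0.962 and 11.6 CPM in 12Q, 3.10 and 2.79 CPM in 48Q and 0.939 and 1.06 CPM in WT. The 12Q mean was carried by replicate 2, since replicate 1 lay within the WT range (log2 fold change 2.65 ± 1.08, edgeR adjusted p = 0.126). Cxcl9 had 0.703 and 2.91 CPM in 12Q, 2.74 and 1.28 CPM in 48Q and 0.156 and 1.59 CPM in WT, and every pair of groups overlapped. Exons of Cxcl10 overlap Art3 and those of Cxcl11 overlap Gm2673, and since the strand setting of the counting is unknown these values are uncertain.

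Among the other CXC ligands, 1 rose and 2 fell in 12Q against WT, 1 rose in 48Q against WT, and 1 was higher and 2 lower in 12Q against 48Q, of 4 tested. Cxcl16 (chr11:70454234-70459984), a transmembrane ligand of Cxcr6 that also takes up oxidised lipoproteins, had 167 and 166 CPM in 12Q, 59.3 and 60.6 CPM in 48Q and 16.6 and 15.5 CPM in WT. The groups were ordered with no overlap and with replicates nearly equal. Cxcl16 was 10.4-fold higher in 12Q than in WT (log2 3.38 ± 0.21, edgeR adjusted p = 0.00256) and 3.73-fold higher in 48Q than in WT (log2 1.90 ± 0.20, edgeR adjusted p = 0.0121). The tumor groups differed 2.78-fold (log2 1.48 ± 0.20, edgeR adjusted p = 0.0246), a call lost without any 1 tumor library (edgeR adjusted p = 0.0554 to 0.225). The 12Q call against WT held in all 12 alternatives, and that of 48Q was lost without 48Q replicate 1 (edgeR adjusted p = 0.0668), 48Q replicate 2 (0.0938) or WT replicate 1 (0.0800). Exons of Cxcl16 overlap Zmynd15, which stood at 3.11 and 3.87 CPM in 12Q, 5.45 and 5.30 CPM in 48Q and 0.782 and 2.21 CPM in WT.

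Cxcl14 (chr13:56288643-56296551) had 7.25 and 15.1 CPM in 12Q, 202 and 157 CPM in 48Q and 8.03 and 30.5 CPM in WT. Only the 48Q libraries stood apart, and 12Q overlapped WT. Cxcl14 was lower in 12Q than in 48Q by 4.0 ± 0.71 on the log2 scale (edgeR adjusted p = 0.0395), a call lost with library totals and without any 1 tumor library (edgeR adjusted p = 0.0704 to 0.121). Without 12Q replicate 2 the log2 difference was -4.61. Against WT it did not pass in 12Q (log2 -0.78 ± 0.64, edgeR adjusted p = 0.407) or in 48Q (log2 3.21 ± 0.68, edgeR adjusted p = 0.0520). In 48Q it passed with library totals (edgeR adjusted p = 0.0343), with no filter on low counts (0.0369), with the replicate block (log2 3.53, edgeR adjusted p = 0.0269), without WT replicate 2 (log2 4.47, edgeR adjusted p = 0.0436) and by DESeq2 (adjusted p = 2.07e-05).

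Cxcl12 (chr6:117168535-117181368), the stromal ligand of Cxcr4, had 6.33 and 2.75 CPM in 12Q, 65.4 and 34.2 CPM in 48Q and 16.8 and 70.8 CPM in WT. The 12Q libraries lay below all others, and 48Q lay within the WT range. Cxcl12 fell by 3.27 ± 0.80 on the log2 scale in 12Q against WT (edgeR adjusted p = 0.0337), a call lost without 12Q replicate 1 (edgeR adjusted p = 0.0701), 12Q replicate 2 (0.135) or WT replicate 2 (0.104), with log2 values of -3.96 to -1.90 over the left-out libraries. In 48Q the log2 difference from WT was 0.18 ± 0.73 (edgeR adjusted p = 0.899), and in 12Q against 48Q it was -3.46 ± 0.81 (edgeR adjusted p = 0.0641). The difference between the tumor groups did pass by DESeq2 (adjusted p = 4.94e-05) and with only the 2 groups compared (edgeR adjusted p = 0.0481).

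Cxcl13 (chr5:95956939-95961068), which draws B cells through Cxcr5, had 0.111 and 0 CPM in 12Q, 4.33 and 3.14 CPM in 48Q and 4.33 and 1.90 CPM in WT. The 12Q libraries held 3 counts in all, far below every other library. The CPM ratio of 12Q to WT was 0.0168 with an exact 95% interval of 0.00341 to 0.0501 that covers counting error only (edgeR adjusted p = 0.0189), and the call was lost without WT replicate 1 (edgeR adjusted p = 0.0544). The ratio of 12Q to 48Q was 0.0136 (interval 0.00278 to 0.0402, edgeR adjusted p = 0.0449), a call lost with library totals, with only the 2 groups compared and without any 1 of the 6 libraries (edgeR adjusted p = 0.0521 to 0.192). Without 12Q replicate 1 the 12Q libraries were at 0, at least 33.6-fold below WT and 40.2-fold below 48Q, and without 12Q replicate 2 the ratio was 0.0368 to WT and 0.0298 to 48Q. Without WT replicate 1 the ratio to WT was 0.0266. B and plasma cell markers summed to 8.29 and 2.69 CPM in 12Q, 118 and 82.1 CPM in 48Q and 1.93 and 35.3 CPM in WT, and their part in the Cxcl13 result was not tested. Most of the 48Q sum was Jchain, a plasma cell gene, at 117 and 80.8 CPM there, whereas the B cell marker Ms4a1 stood at 0.370 and 0.124 CPM in 12Q, 0.632 and 0.285 CPM in 48Q and 0.834 and 3.71 CPM in WT.

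The ligands classed here under Ccr2, the receptor that recruits inflammatory monocytes, gave 0 calls among 4 tested in each comparison by edgeR. Which receptor each of them uses was not tested. At an unadjusted p under 0.05 12Q against WT had 0, 48Q against WT had 1 and 12Q against 48Q had 1, and DESeq2 called 1 gene, Ccl8, in the same 2 comparisons. Ccl8 had 0.222 and 0.371 CPM in 12Q, 4.67 and 5.56 CPM in 48Q and 0.156 and 0.840 CPM in WT. Its 48Q libraries lay above all others (log2 3.33 ± 0.84 over WT, edgeR adjusted p = 0.0731), and its 12Q libraries lay within the WT range. Ccl2 had 1.29 and 3.81 CPM in 12Q, 1.57 and 0.969 CPM in 48Q and 6.26 and 0.530 CPM in WT, so the WT libraries spanned those of both tumor groups. The same spread within WT was seen for Ccl7, at 6.62 and 0.486 CPM there.

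Of the 7 tested inflammatory CC ligands and eotaxins, which together attract monocytes, T cells and eosinophils, 1 rose and 2 fell in 12Q against WT. In 48Q against WT 0 passed by edgeR, with 3 at an unadjusted p under 0.05 and 1, Ccl3, by DESeq2. Ccl3 (chr11:83647843-83649378), also known as MIP-1α, had 0.666 and 3.84 CPM in 12Q, 1.47 and 0.969 CPM in 48Q and 0 and 0.0442 CPM in WT. Every tumor library lay above WT, where Ccl3 had 1 count in all. The CPM ratio of 12Q to WT was 100 with a counting interval of 17.7 to 3977 (edgeR adjusted p = 0.0259). That of 48Q to WT was 50.8 with an interval of 8.87 to 2030 (edgeR adjusted p = 0.0759). The 12Q call was lost without 12Q replicate 2 (edgeR adjusted p = 0.0668), WT replicate 1 (0.0997) or WT replicate 2 (0.0780). The ratio was 160 without 12Q replicate 1, 27.8 without 12Q replicate 2 (counting interval 4.39 to 1160) and 54.1 without WT replicate 1, and the fold was at least 14.4 without WT replicate 2.

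Ccl11 and Ccl24 are eotaxins, which attract eosinophils through Ccr3. Ccl11 (chr11:82057832-82062955) had 0 and 0.0309 CPM in 12Q, 1.63 and 0.884 CPM in 48Q and 3.81 and 2.83 CPM in WT. A lone count was found in the 12Q libraries, below all other libraries. The CPM ratio of 12Q to WT was 0.00514 with a counting interval of 0.000129 to 0.0291 (edgeR adjusted p = 0.00773, held in all 12 alternatives). The ratio of 12Q to 48Q was 0.0135 with an interval of 0.000339 to 0.0775 (edgeR adjusted p = 0.0364), a call lost without any 1 tumor library (edgeR adjusted p = 0.0763 to 0.190). Without 12Q replicate 1 the ratio was 0.00944 to WT and 0.0249 to 48Q, and without 12Q replicate 2 the remaining library was at 0, at least 29.9-fold below WT and 11.3-fold below 48Q. Ccl24 (chr5:135569937-135573043) had 0.111 and 0.0309 CPM in 12Q, 0.632 and 0.200 CPM in 48Q and 2.14 and 0.707 CPM in WT, with 4 counts in 12Q. Its groups did not overlap. Ccl24 fell by 4.28 ± 1.11 on the log2 scale in 12Q against WT (edgeR adjusted p = 0.0391), and the call was lost without any 1 library other than WT replicate 2 (adjusted p of up to 0.146). It was also lost with only the 2 groups compared (edgeR adjusted p = 0.0531). Without WT replicate 1 the log2 value was -3.28 and without WT replicate 2 it was -4.88. The CPM ratio to WT was 0.0227 without 12Q replicate 1 and 0.0814 without 12Q replicate 2. Eosinophil markers summed to 0.407 and 0.371 CPM in 12Q, 1.35 and 0.855 CPM in 48Q and 0.104 and 0.442 CPM in WT, close to the floor in every library, and their part in the eotaxin result was not tested.

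The most abundant ligands of this class, Ccl6 and Ccl9, showed wide spread between WT replicates. Ccl6 had 25.2 and 75.4 CPM in 12Q, 29.9 and 21.2 CPM in 48Q and 31.1 and 5.04 CPM in WT. Ccl9 had 9.80 and 30.2 CPM in 12Q, 12.6 and 9.95 CPM in 48Q and 33.1 and 2.87 CPM in WT. Each gene's tumor groups overlapped WT, and no difference passed.

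Among the other CC ligands, 3 of 6 tested rose in 12Q against WT and 2 of 6 in 48Q against WT. In 12Q against 48Q 0 passed by edgeR, 0 had an unadjusted p under 0.05 and DESeq2 called 0. Ccl17 and Ccl22, the ligands of Ccr4 on regulatory and type 2 helper T cells, lie on either side of Cx3cl1 in chr8:94745684-94812036, and Ccl20 is the ligand of Ccr6. Promoters of Ccl17 and Ccl20 are shown because each belongs to a ligand with 0 counts in WT and holds a motif. For Ccl17, at chr8:94810203-94810452, capitals mark 2 matches to the TCF/LEF motif.

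Ccl17: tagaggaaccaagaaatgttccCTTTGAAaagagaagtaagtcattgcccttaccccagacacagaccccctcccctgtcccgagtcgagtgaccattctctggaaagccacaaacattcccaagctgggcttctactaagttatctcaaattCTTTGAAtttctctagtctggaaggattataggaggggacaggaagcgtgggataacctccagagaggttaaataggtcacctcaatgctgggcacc

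For Ccl20, at chr1:83116516-83116765, capitals mark a match to the κB motif.

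Ccl20: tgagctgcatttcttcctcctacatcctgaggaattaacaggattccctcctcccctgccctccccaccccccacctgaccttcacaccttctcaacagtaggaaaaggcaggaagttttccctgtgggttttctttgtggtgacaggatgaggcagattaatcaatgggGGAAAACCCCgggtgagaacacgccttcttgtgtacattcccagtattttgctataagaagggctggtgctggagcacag

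Ccl22 (chr8:94745684-94751388) had 3.59 and 4.95 CPM in 12Q, 3.88 and 5.19 CPM in 48Q and 0 and 0.0884 CPM in WT. The tumor groups overlapped each other and lay above WT, where 2 counts were found. The CPM ratio to WT was 90.5 in 12Q with a counting interval of 24.8 to 751 (edgeR adjusted p = 0.00867, held in all 12 alternatives). In 48Q the ratio was 95.2 with an interval of 26.1 to 789 (edgeR adjusted p = 0.0243), and the call was lost without 48Q replicate 1 (edgeR adjusted p = 0.0665), 48Q replicate 2 (0.105) or WT replicate 1 (0.0877). Without WT replicate 1 the ratio was 49.0 in 12Q and 51.5 in 48Q, and without WT replicate 2 the fold was at least 27.3 in 12Q and 29.0 in 48Q.

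Ccl17 (chr8:94810453-94812036) had 0.629 and 0.464 CPM in 12Q, 0.602 and 0.941 CPM in 48Q and 0 counts in WT. The tumor groups overlapped each other and lay above WT. The fold over WT was at least 3.78 in 12Q (edgeR adjusted p = 0.0238) and at least 5.34 in 48Q (edgeR adjusted p = 0.0448). The 48Q call was lost with only the 2 groups compared (edgeR adjusted p = 0.053) and with the replicate block (0.0701). Each call was lost without any 1 library of the 6, with edgeR adjusted p of 0.0529 to 0.0772 in 12Q and 0.0598 to 0.264 in 48Q.

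Ccl20 (chr1:83116766-83119167) had 0.222 and 1.24 CPM in 12Q, 0.783 and 0.513 CPM in 48Q and 0 counts in WT. It was at least 5.05-fold higher in 12Q than in WT (edgeR adjusted p = 0.0457). In 48Q it was at least 4.48-fold higher, where the difference did not pass (edgeR adjusted p = 0.0931). DESeq2 did call that 48Q difference (adjusted p = 0.0254). The 12Q libraries spanned those of 48Q. The 12Q call held in 5 of 12 alternatives (edgeR adjusted p = 0.0107 to 0.117), and of the libraries left out in turn only 12Q replicate 1 left it in place. Without 12Q replicate 2 the fold was at least 1.54, and without 12Q replicate 1 it was at least 8.56. Ccl25, Ccl27a and Ccl28, which serve gut and skin lymphocyte receptors, were between 0.261 and 5.36 CPM in every library, and none passed.

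The membrane-bound ligand of Cx3cr1, Cx3cl1 or fractalkine, had 40.4 and 86.7 CPM in 12Q, 49.2 and 48.4 CPM in 48Q and 35.3 and 22.5 CPM in WT. All tumor libraries lay above WT, but the log2 difference of 1.14 ± 0.41 in 12Q and that of 0.76 ± 0.41 in 48Q did not pass (edgeR adjusted p = 0.0945 and 0.301). With library totals the 12Q difference did pass (edgeR adjusted p = 0.0347). Xcl1, a lymphocyte chemokine that attracts Xcr1-bearing dendritic cells, had 0.555 and 0.340 CPM in 12Q, 1.05 and 0.884 CPM in 48Q and 0 and 0.133 CPM in WT. Its groups did not overlap. The CPM ratio to WT was 6.10 in 12Q with a counting interval of 1.87 to 31.5 (edgeR adjusted p = 0.131) and 13.5 in 48Q with an interval of 4.41 to 67.0 (edgeR adjusted p = 0.0959). Of these 2 ligands, 0 passed in any comparison by edgeR under TMM and 0 by DESeq2, with 1 at an unadjusted p under 0.05 in each comparison against WT. Exons of Xcl1 overlap Gm20743, which had 0 counts in every library.

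**Figure D3:**
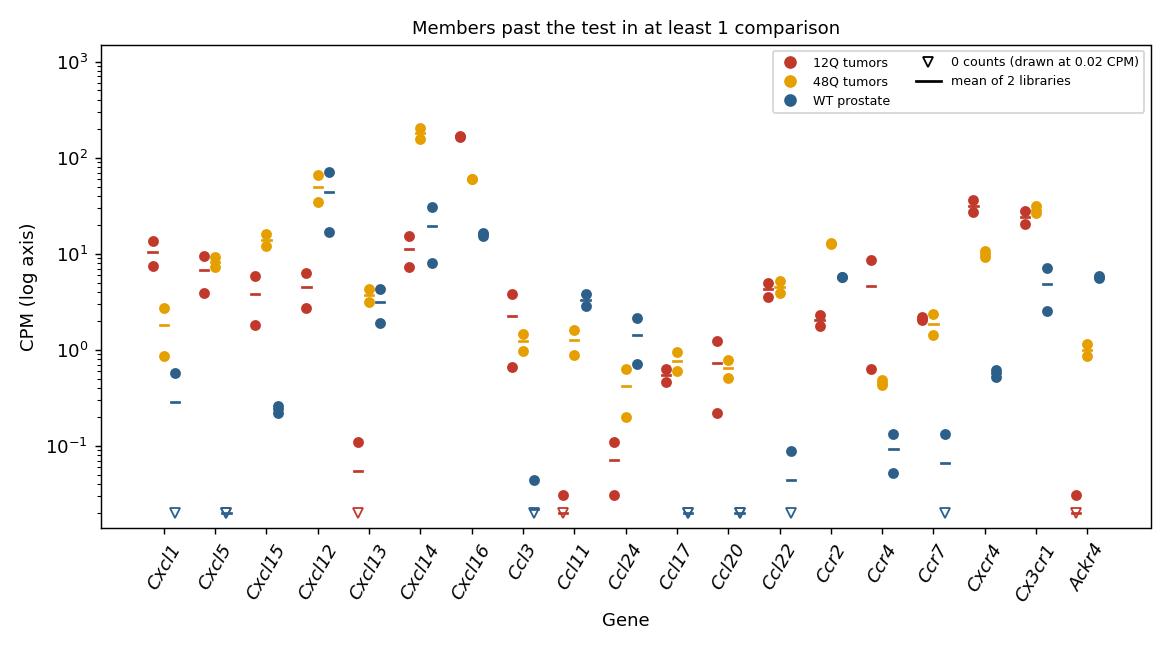
CPM on a log axis in each of the 6 libraries for members past the threshold in at least 1 comparison, with groups in the order 12Q, 48Q, WT. Points are libraries, dashes are means of 2 and open triangles mark 0 counts. The column of Ccr2 is the one in which 12Q, at 2.33 and 1.76 CPM, lies below WT and 48Q, at 12.8 and 13 CPM, lies above it. This order was not counted over all genes tested.

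Among the CC receptors, Ccr4 and Ccr7 rose and Ccr2 fell in 12Q against WT. Ccr2 (chr9:124102183-124113557), the receptor of inflammatory monocytes, had 2.33 and 1.76 CPM in 12Q, 12.8 and 13 CPM in 48Q and 5.74 and 5.75 CPM in WT. The groups were ordered 48Q, WT, 12Q without overlap, and Ccr2 was the one tested member with the tumor groups on opposite sides of WT. Such orders were not counted over all genes tested, so this is a description. In 48Q against WT Ccr2 did not pass (log2 1.16 ± 0.37, edgeR adjusted p = 0.122). That difference did pass by DESeq2 (adjusted p = 0.0219) and with library totals (edgeR adjusted p = 0.0339). Ccr2 fell by 1.49 ± 0.38 on the log2 scale in 12Q against WT (edgeR adjusted p = 0.0384). It was lower in 12Q than in 48Q by 2.65 ± 0.39 (edgeR adjusted p = 0.0283). The call against WT held in 3 of 12 alternatives and was lost without any 1 of the 6 libraries (edgeR adjusted p = 0.0503 to 0.150), and that against 48Q was lost without any 1 tumor library (edgeR adjusted p = 0.0594 to 0.199).

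Ccr4 (chr9:114490316-114496544), the receptor of Ccl17 and Ccl22, had 0.629 and 8.54 CPM in 12Q, 0.482 and 0.428 CPM in 48Q and 0.0521 and 0.133 CPM in WT. Replicate 2 of 12Q stood far above all other libraries. The log2 fold change in 12Q over WT was 5.54 ± 1.43 (edgeR adjusted p = 0.0388). Without 12Q replicate 2 it was 2.68 (edgeR adjusted p = 0.111), without 12Q replicate 1 it was 6.48, without WT replicate 2 the CPM ratio was 94.7 with a counting interval of 16.9 to 3752, and the call was lost without any 1 library other than 12Q replicate 1 (adjusted p of up to 0.154). It was also lost with only the 2 groups compared (edgeR adjusted p = 0.0611). T and NK cell markers mark the cells best known for Ccr4. They summed to 10.1 and 7.95 CPM in 12Q, 17.6 and 15.1 CPM in 48Q and 2.71 and 7.65 CPM in WT. Their part in the Ccr4 result was not tested.

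Ccr7 (chr11:99144199-99155077), which takes dendritic cells and T cells to lymph nodes, had 2.18 and 2.04 CPM in 12Q, 1.41 and 2.34 CPM in 48Q and 0 and 0.133 CPM in WT. The tumor groups overlapped each other and lay above WT. With 3 counts in WT, the CPM ratio was 29.3 in 12Q with a counting interval of 9.81 to 144 (edgeR adjusted p = 0.0234). In 48Q it was 26.3 with an interval of 8.81 to 129 (edgeR adjusted p = 0.0556). The 48Q difference did pass by DESeq2 (adjusted p = 0.000976), with library totals (edgeR adjusted p = 0.0349) and with no filter on low counts (0.0499). The 12Q call was lost without 12Q replicate 2 (edgeR adjusted p = 0.0572), 48Q replicate 1 (0.0532) or 48Q replicate 2 (0.0557). The 12Q ratio was 15.9 without WT replicate 1, and the fold was at least 13.5 without WT replicate 2. Ccr1 and Ccr6 did not pass in any comparison.

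Among the CXC receptors, Cxcr4 was the 1 of 4 tested that passed, in all 3 comparisons. Cxcr4 (chr1:128588199-128592299), the receptor of Cxcl12 on leukocytes, endothelium and many tumor cells, had 36.1 and 27.0 CPM in 12Q, 10.6 and 9.27 CPM in 48Q and 0.521 and 0.619 CPM in WT. The groups were ordered 12Q, 48Q, WT with no overlap. It was 55.3-fold higher in 12Q than in WT (log2 5.77 ± 0.39, edgeR adjusted p = 0.0027) and 17.4-fold higher in 48Q than in WT (log2 4.11 ± 0.37, edgeR adjusted p = 0.00991). The first held in all 12 alternatives and the second was lost without WT replicate 1 (edgeR adjusted p = 0.0800). The tumor groups differed 3.17-fold (log2 1.66 ± 0.32, edgeR adjusted p = 0.0451), a call lost with library totals, with the replicate block and without any 1 tumor library (edgeR adjusted p = 0.0735 to 0.316).

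Set beside its ligand, Cxcr4 was higher and Cxcl12 lower in 12Q against WT, while in 48Q Cxcr4 was higher and Cxcl12 lay within the WT range. The receptor of Cxcl16, Cxcr6, had 1.22 and 1.30 CPM in 12Q, 4.12 and 2.48 CPM in 48Q and 0.261 and 1.11 CPM in WT. Its groups did not overlap, with 48Q highest and WT lowest. No difference passed, at log2 0.87 in 12Q over WT (edgeR adjusted p = 0.442) and 2.25 in 48Q over WT (0.142). In 12Q against 48Q the log2 difference was -1.39 (edgeR adjusted p = 0.284). Cxcr2, the receptor of the ELR ligands, had 0.296 and 2.23 CPM in 12Q, 1.20 and 0.827 CPM in 48Q and 0.365 and 0 CPM in WT, and 12Q overlapped WT (edgeR adjusted p = 0.208). Cxcr3 was below 1 CPM in every library and did not pass.

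The receptor of fractalkine, Cx3cr1 (chr9:120048683-120068296), marks monocytes and tissue macrophages. It had 27.7 and 20.3 CPM in 12Q, 26.2 and 31.4 CPM in 48Q and 2.56 and 7.16 CPM in WT. The tumor groups overlapped each other and lay above WT. Cx3cr1 rose by 2.30 ± 0.52 on the log2 scale in 12Q (edgeR adjusted p = 0.0268) and by 2.56 ± 0.52 in 48Q against WT (edgeR adjusted p = 0.0480). The 12Q call was lost without 12Q replicate 1 (edgeR adjusted p = 0.0700) or 12Q replicate 2 (0.0584), and the 48Q call without any 1 library other than WT replicate 2 (edgeR adjusted p = 0.0554 to 0.208). Each call was also lost with only the 2 groups compared (edgeR adjusted p = 0.0579 in 12Q and 0.0546 in 48Q). Without WT replicate 2 the log2 values were 3.23 in 12Q and 3.49 in 48Q. Exons of Cx3cr1 overlap Gm33858, so its values carry the same strand uncertainty. Xcr1 is a receptor of cross-presenting dendritic cells. It had 0.629 and 0.681 CPM in 12Q, 2.02 and 2.00 CPM in 48Q and 0.104 and 0.442 CPM in WT, groups that did not overlap. Xcr1 did not pass by edgeR (log2 2.83 in 48Q over WT, edgeR adjusted p = 0.0860), whereas DESeq2 called it higher in 48Q against WT.

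Of the 4 atypical receptors, 1 fell in 12Q against WT and was also lower in 12Q than in 48Q. In 48Q against WT 0 passed by edgeR, with 1 at an unadjusted p under 0.05 and 1, Ackr4, by DESeq2. Ackr4 (chr9:104098138-104126643), which scavenges Ccl19, Ccl21 and Ccl25, had 0 and 0.0309 CPM in 12Q, 0.873 and 1.14 CPM in 48Q and 5.84 and 5.57 CPM in WT. The groups were ordered WT, 48Q, 12Q with no overlap, and the 12Q libraries held 1 count. The CPM ratio of 12Q to WT was 0.00296 with a counting interval of 7.46e-05 to 0.0166 (edgeR adjusted p = 0.00496), and this call held in all 12 alternatives. The ratio of 12Q to 48Q was 0.0167 with an interval of 0.000416 to 0.0960 (edgeR adjusted p = 0.0324), a call lost without any 1 tumor library (edgeR adjusted p = 0.0709 to 0.131). Without 12Q replicate 1 the ratio was 0.00543 to WT and 0.0306 to 48Q, and without 12Q replicate 2 the remaining library was at 0, at least 51.4-fold below WT and 9.07-fold below 48Q. In 48Q the log2 difference from WT was -2.50 ± 0.62 (edgeR adjusted p = 0.0710). Exons of Ackr4 overlap Acad11, a gene at 54.1 and 25.2 CPM in 12Q, 46.7 and 47.2 CPM in 48Q and 97.8 and 83.6 CPM in WT. Ackr3, the scavenger of Cxcl12, was abundant at 55.7 and 19.96 CPM in 12Q, 31.1 and 37.8 CPM in 48Q and 15.02 and 44.1 CPM in WT, and its groups overlapped.

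Several members sit in gene clusters. All 5 ELR ligands among the members of the chromosome 5 cluster lay above WT in each tumor group, as given above. The chr11:82035577-82179812 cluster holds Ccl2, Ccl7, Ccl11, Ccl12, Ccl8 and Ccl1. All 5 tested there had a log2 fold change below 0 in 12Q against WT, from -7.30 to -0.06. The eotaxin Ccl11 was the 1 that passed. In chr11:83525779-83664683, all 5 ligand genes had a log2 fold change above 0 in 12Q against WT, from 0.16 to 6.33. Ccl3 was the 1 that passed. Such shared signs were not counted over all genes tested. On chromosome 8, Ccl17 and Ccl22 rose in each tumor group, and Cx3cl1 between them did not pass.

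Lists of other pathway genes and of cell markers came from the same fit. Of all genes tested, 11.2% passed as higher and 11.2% as lower in 12Q against WT. The shares were 3.95% and 1.23% in 48Q against WT, and 1.01% and 3.16% in 12Q against 48Q. Of 29 signalling and turnover genes tested, 3 were higher in 12Q against WT (Gnai2, Grk6 and Vav1) and 2 in 48Q against WT (Gng2 and Vav1). Both counts lay near the shares of all genes and are not a result about the list. In 12Q against 48Q 0 passed by edgeR, with 4 at an unadjusted p under 0.05 and 2 by DESeq2. Grk6, a kinase that desensitises chemokine receptors, had 56.0 and 55.9 CPM in 12Q, 34.8 and 39.1 CPM in 48Q and 22.2 and 25.0 CPM in WT (log2 1.25 in 12Q over WT, edgeR adjusted p = 0.0142). Among 10 tested inducers of chemokine genes, those higher in 12Q against WT included Tnf, Il1a, Tnfaip3 and Ptgs2. In 48Q against WT 0 of the 10 passed by edgeR, with 5 at an unadjusted p under 0.05 and 4 by DESeq2, and in 12Q against 48Q 0 passed, with 2 at an unadjusted p under 0.05 and 2 by DESeq2. Il1a, which encodes the alarm cytokine interleukin-1α, had 3.44 and 14.3 CPM in 12Q, 1.63 and 1.82 CPM in 48Q and 0.104 and 0.265 CPM in WT (log2 5.53 in 12Q over WT, edgeR adjusted p = 0.0132). Ccrl2, a chemerin-binding relative of the chemokine receptors whose name the rule does not match, had 13.6 and 25.4 CPM in 12Q, 4.40 and 3.39 CPM in 48Q and 3.28 and 3.18 CPM in WT, and was higher in 12Q than in WT (log2 2.59, edgeR adjusted p = 0.0133) and than in 48Q (log2 2.32, edgeR adjusted p = 0.0452).

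Markers of the cells that make or carry these proteins also differed between the groups. Their counts are to be read beside the shares of all genes given with the pathway lists. Fibroblast markers summed to 137 and 402 CPM in 12Q, 934 and 804 CPM in 48Q and 596 and 621 CPM in WT, and 3 of 6 fell in 12Q against WT. Beside them, the members Cxcl12, Cxcl13, Ccl11 and Ackr4 summed to 6.44 and 2.82 CPM in 12Q and 72.2 and 39.4 CPM in 48Q. In WT they summed to 30.8 and 81.1 CPM. Most of this sum was Cxcl12, at 6.33 and 2.75 CPM in 12Q, 65.4 and 34.2 CPM in 48Q and 16.8 and 70.8 CPM in WT. Both sums were lowest in the 12Q libraries. These members were chosen from those called lower in 12Q, so their lowest group followed from that choice. Of the defining fibroblast markers, Dpt was at 0 in both 12Q libraries, and Pdgfra stood at 0.851 and 1.11 CPM in 12Q, 82.0 and 63.6 CPM in 48Q and 23.4 and 42.2 CPM in WT. Col1a1 was not lower in 12Q, at 73.8 and 195 CPM in 12Q, 147 and 191 CPM in 48Q and 12.8 and 74.1 CPM in WT, and did not pass. Smooth muscle markers summed to 44.4 and 36.3 CPM in 12Q, 841 and 295 CPM in 48Q and 2309 and 5837 CPM in WT, and all 6 fell in 12Q against WT. The part of stromal content in the lower members was not tested.

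Macrophage markers summed to 251 and 286 CPM in 12Q, 339 and 330 CPM in 48Q and 93.6 and 87.1 CPM in WT. Of 9 tested, 6 rose and 1 fell in 12Q against WT, and 6 rose in 48Q against WT. The receptor Cx3cr1, at 20.3 to 31.4 CPM in the tumor libraries and at most 7.16 CPM in WT, was likewise higher in each tumor library than in WT. Dendritic cell markers summed to 13.5 and 25.7 CPM in 12Q, 40.2 and 35.9 CPM in 48Q and 13.5 and 8.31 CPM in WT. Endothelial markers summed to 262 and 300 CPM in 12Q, 131 and 130 CPM in 48Q and 76.2 and 109 CPM in WT. Of 7 tested, 4 rose and 1, Emcn, fell in 12Q against WT, and Emcn fell in 48Q against WT. Mast cell markers summed to 11.4 and 13.3 CPM in 12Q, 43.7 and 30.7 CPM in 48Q and 10.5 and 15.6 CPM in WT. Most of the 12Q sum was Kit, at 11.1 and 13.2 CPM there, while 5 of the 6 markers were lower in 12Q against WT and against 48Q, and Mcpt4, Tpsb2 and Ms4a2 were at 0 in both 12Q libraries. None of the 8 tested T and NK cell markers passed in any comparison by edgeR, with 2 at an unadjusted p under 0.05 in 48Q against WT, and DESeq2 called 0. The part of these cells in the receptor results was not tested.

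**Figure D4:**
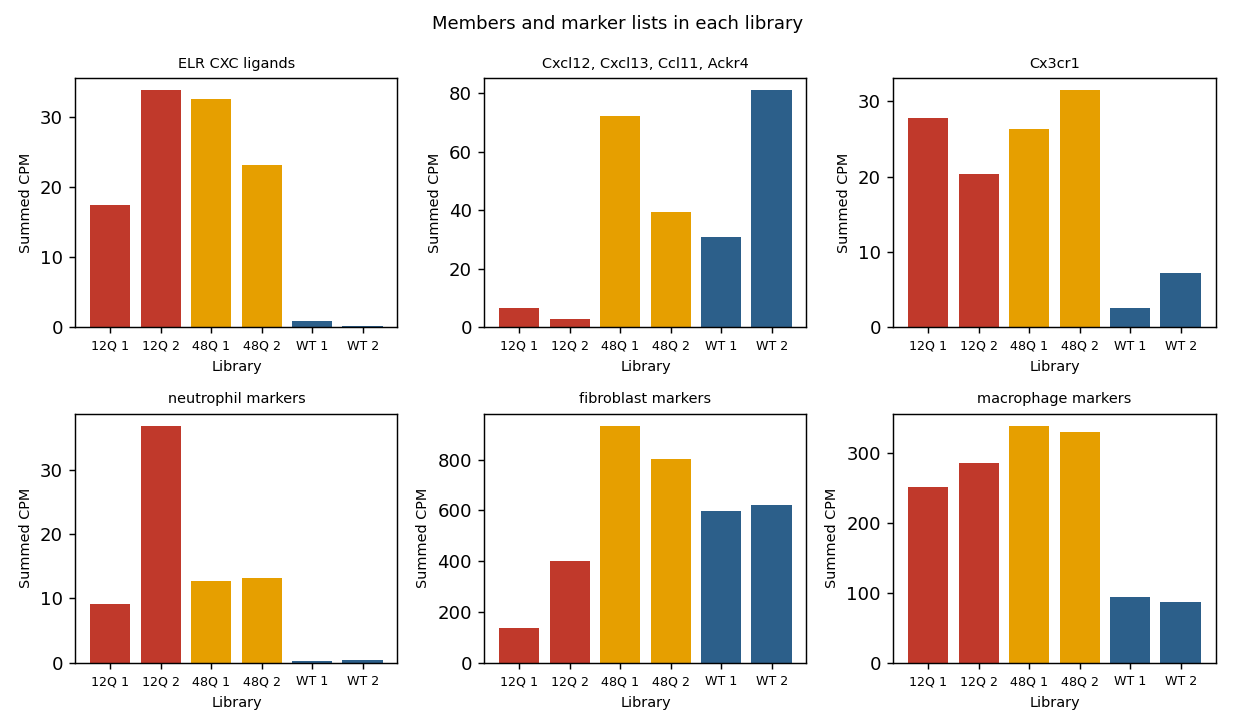
CPM per library of 2 sets of members, summed, and of Cx3cr1 (top) and summed CPM of the markers of 3 cell types (bottom), with bars for the libraries of 12Q, 48Q and WT from left to right and axes that start at 0. ELR ligands stand above neutrophil markers, Cxcl12, Cxcl13, Ccl11 and Ackr4 above fibroblast markers, and Cx3cr1 above macrophage markers. In each pair the group with the lowest bars is the same. Cxcl12, Cxcl13, Ccl11 and Ackr4 are among the members called lower in 12Q, and Cx3cr1 among those called higher in tumors. The lowest group of these members therefore followed from their choice.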

How the data were processed

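RNA was sequenced from 6 mouse prostate libraries, and group and replicate number were taken from the labels. The authors deposited whole-number read counts per gene in 1 table. The submitters' processing notes name TopHat2 2.0.14, HTSeq 0.6.0 and the build mm10. Which annotation, strand setting and rule for multiply mapped reads were used is not given in the sources used here, so overlapping genes and near-identical copies (Ccl27a and Ccl27b, Ccl19) are uncertain. The gene that carries the polyglutamine tract and a few other genes are not reported here, although counts over members and lists include them.

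Counts were filtered with filterByExpr (minimum count 10, minimum total 15), scaled by TMM and tested with edgeR 4.0.16's quasi-likelihood F test (R 4.3.3). All 3 groups entered 1 fit, with Benjamini-Hochberg adjustment over 15050 genes and a threshold of 0.05. SE is that of the log2 fold change. Where a group was at 0, folds are bounds with 3 counts per library, and where it held 1 to 3 counts, the CPM ratio has an exact 95% interval. Both cover counting error only. The script was tested on simulated data.

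Given by value are members past the threshold in at least 1 comparison and, in a class without one, the 2 with the highest mean CPM. Of pathway and marker lists at most 2 genes are named by smallest adjusted p in 12Q against WT. Some further members and markers, among them Cxcl2, Cxcl3, Ccl6, Ccl7, Ccl9, Cxcr2, Cxcr6, Xcr1, Ackr3, Pf4, Pbsn, Camp, Dpt, Pdgfra, Col1a1, Kit, Jchain, Ms4a1 and Emcn, were added after their values were seen. The members and lists were chosen with earlier results of these data known. The 12 alternatives were DESeq2's size factors in edgeR, library totals, no filter on low counts, DESeq2 1.42.0's Wald test, only the 2 groups compared, a replicate block and leaving out each library. Promoters are from RefSeq GRCm38.p6, and 43 members matched.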

Additional observations from a re-analysis of the deposited data

Results flagged for a closer look

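The effects of the 12Q and the 48Q genotype against the shared WT libraries differed for 7 members by the test of the difference itself, which is the comparison of 12Q with 48Q tumors (edgeR adjusted p = 0.0246 to 0.0451, n = 2 libraries per group). Higher in 12Q were Cxcl16, by 1.475 on the log2 scale, and Cxcr4, by 1.665. Lower in 12Q were Cxcl14, with a log2 difference of -3.999, and Ccr2, with -2.651. Also lower in 12Q were Cxcl13 at -6.047, Ccl11 at -5.901 and Ackr4 at -5.586, fitted values that depend on the prior count because the 12Q libraries held 1 to 3 counts of each of these genes. Of the 7, Ccr2 was the one with the 12Q libraries below and the 48Q libraries above both WT libraries. That order was not counted over all genes tested. Ccr2 in 48Q against WT did not pass (edgeR adjusted p = 0.122), but it passed by DESeq2 (adjusted p = 0.0219) and with library totals (edgeR adjusted p = 0.0339). With 2 libraries per group, no library was tested as an outlier.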

How the results depend on the processing

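Under the 12 alternatives no member named in the text reversed its direction where it had passed the test. Repeated values were counted for the called members and, in a class without one, the 2 with the highest mean CPM. Of these values, 771 kept their side of the threshold, 126 no longer passed and 37 newly passed. Members added after their values were seen are not in this count. Among those, DESeq2 called Cxcl2 and Cxcl3 in 12Q against WT and Cxcl2 and Xcr1 in 48Q against WT. With 1 library left out at a time, the members called higher in 12Q against WT numbered 5 to 15 and those lower 3 to 4. In 48Q against WT they numbered 0 to 8 higher and 0 to 1 lower, and in 12Q against 48Q 0 to 2 higher and 0 to 6 lower. With only the 2 groups compared, 8 members were higher in 12Q against WT and 1 was lower in 48Q against WT. With library totals, 14 were higher in 48Q against WT, and 1 was higher and 3 lower in 12Q against 48Q. DESeq2's Wald test called 16 higher and 1 lower in 48Q against WT and 8 lower in 12Q against 48Q.

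Over all genes, DESeq2 called 1561 higher and 979 lower in 48Q against WT, beside 595 and 185 in edgeR, and 920 higher and 1561 lower in 12Q against 48Q, beside 152 and 475. Library totals gave 3265 higher and 1032 lower genes in 12Q against WT, beside 1687 and 1683, and 1918 and 83 in 48Q against WT. With only the 2 groups compared, 997 and 890 genes were called in 12Q against WT. The cause of these differences was not tested.

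The labels do not say whether same-numbered libraries were paired. Deviations of same-numbered libraries correlated at 0.0252 between 12Q and 48Q, 0.134 between 12Q and WT and -0.103 between 48Q and WT. With 1 difference per group, these values cannot show that a pairing or shared batch was absent. With a replicate block, 11 members were higher and 5 lower in 12Q against WT, 7 higher and 0 lower in 48Q against WT, and 1 higher and 5 lower in 12Q against 48Q.

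Groups of 2 libraries and low counts limit precision, since 11 of the 20 called members stayed below 10 CPM in every library.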
